A study of Mus musculus with 4 samples.

Results

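Cutting the Achilles tendon of newborn mice was compared with a sham operation, by RNA sequencing of 1 pooled library a side, which makes 2 of the 4 libraries of the study. In the tenotomy group the Achilles tendon of the right hindlimb was transected in male mice of 7 days, and in the sham group such mice had a sham operation on the left hindlimb. All mice were homozygous for Scx-EGFP on a C57BL/6 background, a transgene in which green fluorescent protein reports the promoter of scleraxis, the transcription factor of tendon cells. RNA was taken 5 days after the operation, while the labels give 7 days as the age both at operation and at harvest, and was pooled from 11 mice in each group. The cut tendon was sampled as its distal stump, freed of the connective tissue around it. The labels do not say whether the sham tendon was freed in the same way, the operated side differed between the groups, and the label of the tenotomy pool also speaks of uninjured tendon, so the pools were grouped by the operation named. The other 2 libraries are the same operations in mice of 6 months, with 9 mice pooled after tenotomy and 5 after sham.

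A tendon is built of parallel collagen fibrils laid down by tenocytes and wrapped in a thin sheath. After a cut, fibroblasts from the tendon, its sheath and the tissue around it enter the gap, multiply, take on contractile properties and lay down a provisional matrix, while white blood cells and vessels arrive. Newborn mice are known to rebuild more of a tendon's structure after such an injury than adults do. The families described here are the signals that could act on those cells, the receptors, the matrix and the machinery that folds and exports it, and the genes of other tissues carried with the sample.

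Levels are FPKM, the fragments per kilobase of transcript scaled to the size of the library. Differences are log2((tenotomy FPKM + 1)/(sham FPKM + 1)), and folds are on the same scale, which understates the difference of low genes. A gene counts as measured at 5 FPKM or more in either library, and as higher or lower from a 2-fold difference, a log2 ratio of 1. A gene at 5 FPKM or more in 1 library alone has its direction set by this floor, in every list below. Steps between low FPKM values gave about 3260000 fragments for the tenotomy library and 2660000 for the sham library, so a transcript of 2 kb at 5 FPKM rested on about 29.5 fragments after tenotomy and 24.1 after sham. With 1 pool a side the spread between animals is unknown, no test can be made, and the 95% intervals on fragments given below cover counting error only. In bulk tissue, fewer cells of a type and less RNA per cell cannot be told apart.

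Of 9424 genes measured, 523 were higher after tenotomy (5.55%) and 973 were lower (10.3%), and the median log2 ratio over all of them was 0.01. Scaling both libraries to the same sum over all entries gave 750 higher and 828 lower. That scaling changes the FPKM of the tenotomy library relative to the sham library by 0.17 on the log2 scale, before 1 FPKM is added. The tissue's label held against its markers: the tenocyte genes Scx (23.3 FPKM after tenotomy, 24.8 after sham) and Tnmd, the membrane glycoprotein tenomodulin, (279 FPKM after tenotomy, 301 after sham) were present at like levels in both libraries. Of the 14 tenocyte genes, 2 were higher and 3 lower (median -0.32). The higher ones were the matrix genes Bgn (1316 FPKM after tenotomy, 622 after sham) and Thbs4 (627 FPKM after tenotomy, 302 after sham). The lower ones were Fmod (324 FPKM after tenotomy, 739.6 after sham), Cilp2 (29.3 FPKM after tenotomy, 82.6 after sham) and Angptl7. Mature muscle genes, in contrast, took 0.168% of the FPKM of ordinary genes after tenotomy and 9.89% after sham, with 136 of 142 measured genes lower and none higher, and of 156 found 39 were listed at 0 after tenotomy and 1 after sham. Of 11 developing muscle genes measured, 10 were lower. In the sham library alone, 120 of the 142 mature and 9 of the 11 developing muscle genes reached the floor. Their counts are thus largely set by the floor, while the shares of FPKM are not. Of the 523 higher genes, 59 belonged to the macrophage or activated fibroblast lists, 154 to one of the other lists described here and 310 to none of the lists. Of the 973 lower genes, 146 were on the muscle lists, 136 on other lists and 691 on none. The muscle lists are not complete, and some lower genes outside them, named below, are known from striated muscle.

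**Figure D1:**
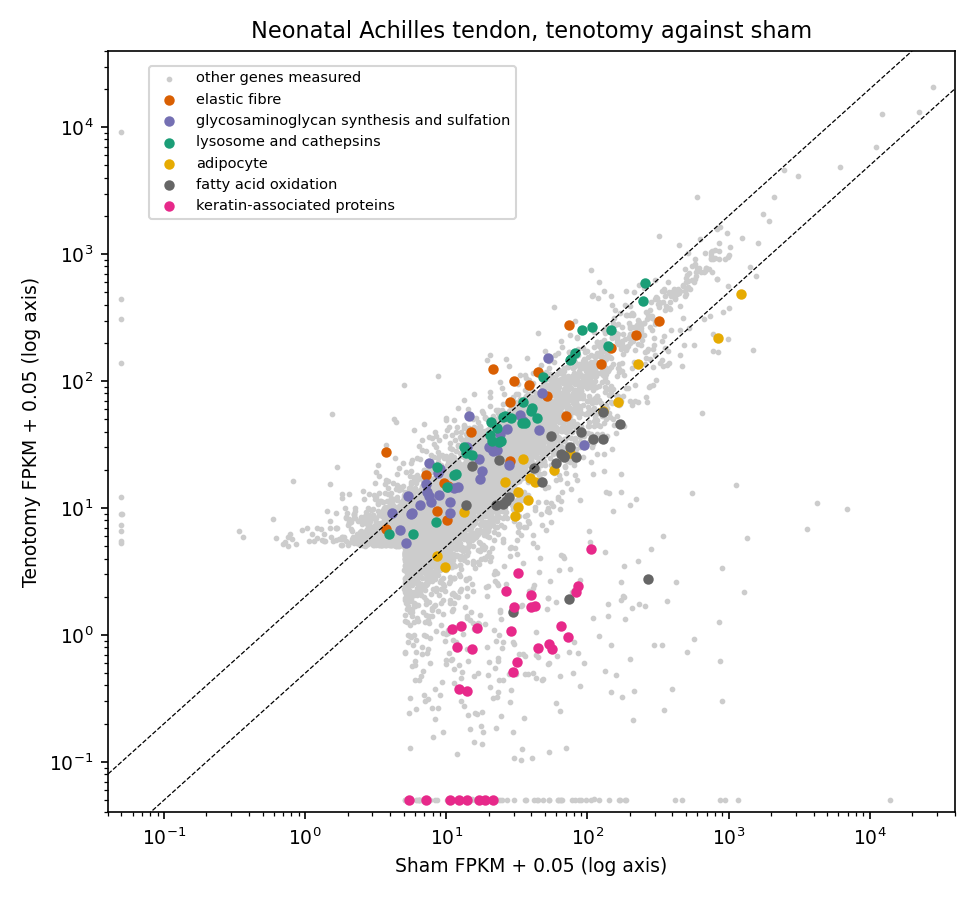
FPKM of 9424 genes in the sham library (horizontal) and the tenotomy library (vertical), both on log axes after adding 0.05 FPKM. Each point is a gene, colours mark 6 lists, and dashed lines mark a plain 2-fold ratio. Elastic fibre, glycosaminoglycan and lysosome genes lie mostly above the diagonal, while fatty acid oxidation, adipocyte and keratin-associated genes lie mostly below it.

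Outside the muscle, macrophage and activated fibroblast lists, and at 10 FPKM or more in either library, the genes that stood furthest up after tenotomy were led by Gpx3. It encodes the secreted glutathione peroxidase of plasma (GRCm38 chr11:54902854-54910387) and stood at 109 FPKM after tenotomy and 8.72 FPKM after sham, 11.3-fold higher. Mmp9, a gelatinase of macrophages, neutrophils and osteoclasts, stood at 50.3 FPKM after tenotomy and 4.19 FPKM after sham. Both were low in the sham library and well within the measured range after tenotomy. Prss35, a secreted serine protease relative, (47.6 FPKM after tenotomy, 4.33 after sham) and Slpi, the secretory leukocyte protease inhibitor, (20.95 FPKM after tenotomy, 1.62 after sham) followed. Csrp2, a LIM protein of smooth muscle and activated mesenchymal cells, stood at 160.1 FPKM after tenotomy and 20.2 FPKM after sham, 7.60-fold higher. Its relative Csrp1 (171 FPKM after tenotomy, 49.7 after sham) was 3.40-fold higher. Also among the 15 highest were the protease inhibitor Stfa1, the imprinted gene Mest, the EGF-repeat genes Megf6 (31.2 FPKM after tenotomy, 3.70 after sham) and Edil3 (15.3 FPKM after tenotomy, 1.46 after sham), the matrix genes Fbln7 and Fbn2, the Wnt modulators Sfrp1 and Rspo2, and the C1q-related secreted protein C1qtnf3 (599 FPKM after tenotomy, 120.1 after sham).

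Among signalling genes, several modulators of Wnt signals at the cell surface passed 2-fold and no Wnt ligand measured did. Of 25 genes measured of 53 listed, 6 were higher and 3 lower (median log2 ratio 0.32). The secreted frizzled-related proteins bind Wnt proteins outside the cell, and of these Sfrp2 stood at 237 FPKM after tenotomy and 44.4 FPKM after sham. Sfrp1 stood at 70.8 FPKM after tenotomy and 13.3 FPKM after sham. Sfrp1 has a single transcript and was seen in 965 fragments after tenotomy and 148 after sham, a ratio per fragment sequenced of 5.32 (95% interval 4.47 to 6.37). Rspo2, an R-spondin that strengthens Wnt signals through Lgr receptors, stood at 12.9 FPKM after tenotomy and 1.78 FPKM after sham, and Dkk3 at 140.3 FPKM after tenotomy and 57.5 FPKM after sham. The receptors Ror2 (7.52 FPKM after tenotomy, 2.78 after sham) and Fzd2 (19.2 FPKM after tenotomy, 8.61 after sham) were also higher. Lower in the tenotomy library were the Wnt antagonists Wif1 (12.1 FPKM after tenotomy, 62.2 after sham) and Frzb (2.24 FPKM after tenotomy, 7.95 after sham), and Apcdd1 (5.27 FPKM after tenotomy, 11.9 after sham). Antagonists thus stood on both sides: Sfrp1 and Sfrp2 were higher and Wif1 and Frzb lower. The ligands measured, Wnt5a (9.93 FPKM after tenotomy, 8.46 after sham), Wnt5b (8.09 FPKM after tenotomy, 7.41 after sham) and Wnt9a (8.60 FPKM after tenotomy, 6.70 after sham), differed by less than 2-fold.

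Growth factors and receptors of the nervous system formed the list with the highest median among the families with at least 10 genes measured. Of 11 genes measured of 22 listed, 6 were higher and none lower, and the median was 1.41. Midkine (Mdk), a heparin-binding growth factor of developing tissue, stood at 130.5 FPKM after tenotomy and 27.7 FPKM after sham. Its relative pleiotrophin (Ptn) stood at 105 FPKM after tenotomy and 36.6 FPKM after sham. The receptors of the GDNF family of neurotrophic factors, Gfra2 (15.6 FPKM after tenotomy, 3.09 after sham) and Gfra1 (19.95 FPKM after tenotomy, 6.91 after sham), were higher, whereas Ret, the kinase they signal through, stood at 4.27 FPKM after tenotomy and 7.42 FPKM after sham. Marcksl1 and Basp1, membrane proteins of growth cones that bind actin regulators, were higher as well. Marcksl1 was seen in 199 fragments after tenotomy and 39 after sham, a ratio per fragment sequenced of 4.16 (95% interval 2.94 to 6.03). Nerve markers were few: Gap43, a growth cone protein, stood at 7.43 FPKM after tenotomy and 9.40 FPKM after sham, and the Schwann cell list had 2 genes measured, both within 2-fold.

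Of 15 ephrin, Eph, slit and netrin genes measured, 3 were higher and none lower (median 0.74). These were the receptors Ephb2 (12.2 FPKM after tenotomy, 4.41 after sham) and Epha3 (14.3 FPKM after tenotomy, 5.93 after sham) and the ligand Efnb1 (13.1 FPKM after tenotomy, 5.25 after sham). Of 20 semaphorin, plexin and neuropilin genes, 2 were higher and 3 lower (median 0.00), and with both libraries at a common sum over all entries the higher genes outnumbered the lower by 1. The receptor Nrp2 (39.5 FPKM after tenotomy, 12.8 after sham) and the membrane ligand Sema7a (12.7 FPKM after tenotomy, 4.98 after sham) were higher. The ligands Sema3b (18.7 FPKM after tenotomy, 58.2 after sham), Sema6c (5.35 FPKM after tenotomy, 17.1 after sham) and Sema3c (68.1 FPKM after tenotomy, 147 after sham) were lower. Nrp1, the paralog of Nrp2, stood at 35.3 FPKM after tenotomy and 34.4 FPKM after sham.

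**Figure D2:**
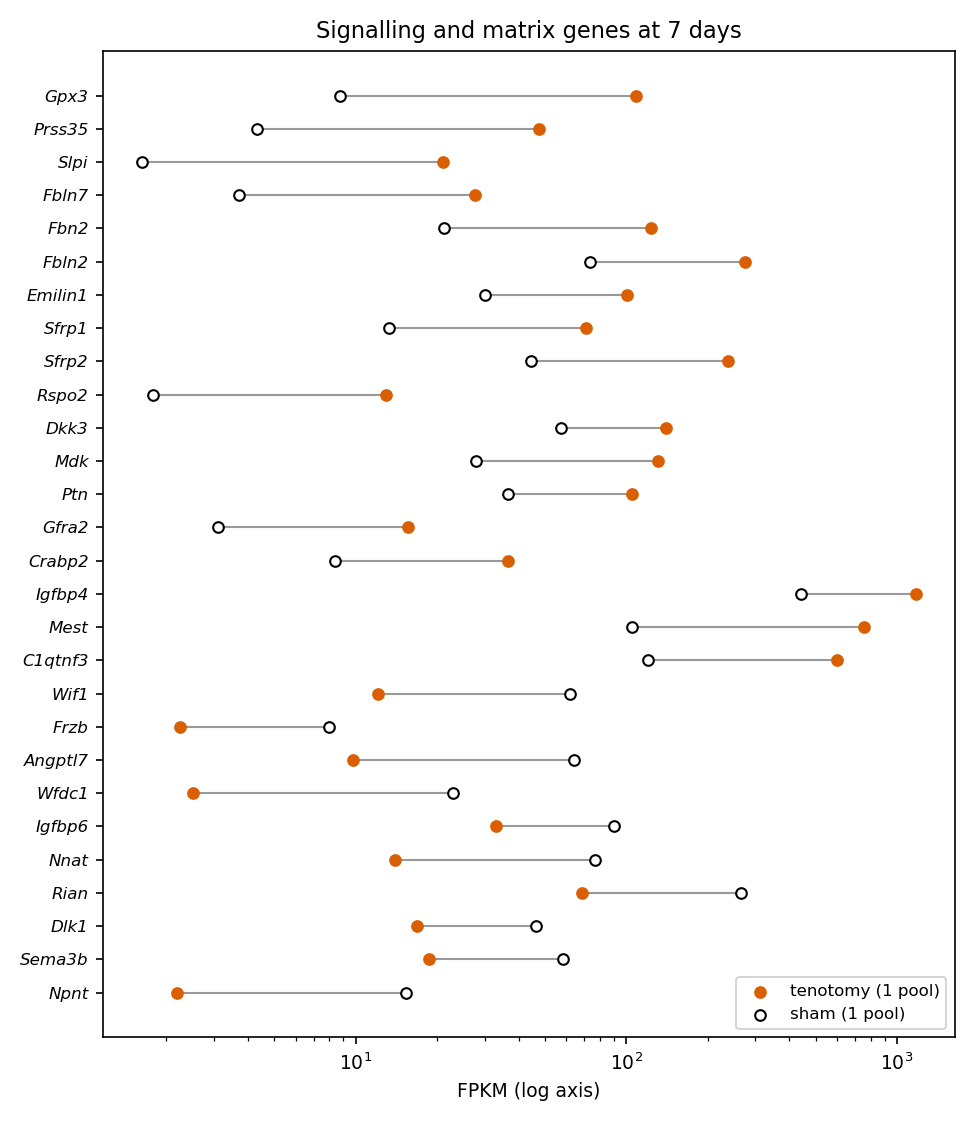
FPKM on a log axis of 28 signalling and matrix genes in the neonatal tenotomy pool (filled points) and the sham pool (open points), each point 1 library. In the upper 18 genes, from Gpx3 to C1qtnf3, the tenotomy value lies to the right of the sham value, and in the lower 10, from Wif1 to Npnt, it lies to the left.

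The insulin-like growth factor list held 12 measured genes, with 2 higher, 1 lower and a median of 0.59. Igfbp4, a binding protein that holds IGF away from its receptor, stood at 1176 FPKM after tenotomy and 442 FPKM after sham. Pappa, the protease that cleaves Igfbp4, was low and seen in 197 fragments after tenotomy and 46 after sham, a ratio per fragment sequenced of 3.49 (95% interval 2.52 to 4.93). Igfbp6, which favours IGF2, went the other way, at 33.1 FPKM after tenotomy and 90.3 FPKM after sham. The ligands Igf1 (289 FPKM after tenotomy, 151 after sham) and Igf2 (1226 FPKM after tenotomy, 858 after sham) were within 2-fold. In the retinoid list, 3 of 13 measured genes were higher and 1 lower (median -0.04). The higher genes included the carrier of retinoic acid in the cell, Crabp2 (36.6 FPKM after tenotomy, 8.38 after sham), and the retinal reductase Dhrs3 (37.95 FPKM after tenotomy, 13.7 after sham). The retinal dehydrogenase Aldh1a1 was lower (7.30 FPKM after tenotomy, 17.7 after sham), and Crabp1, the relative of Crabp2, stood at 42.2 FPKM after tenotomy and 49.8 FPKM after sham.

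No gene of the TGF-beta, BMP and activin list passed 2-fold upwards among 22 measured (median 0.01). The ligands Tgfb3 (84.3 FPKM after tenotomy, 47.7 after sham) and Tgfb1 (26.98 FPKM after tenotomy, 14.5 after sham) came nearest. The ligands Bmp3 (1.67 FPKM after tenotomy, 8.33 after sham) and Bmp6 (3.03 FPKM after tenotomy, 7.92 after sham) were lower. The BMP-responsive Id1 stood at 13.6 FPKM after tenotomy and 18.6 FPKM after sham. Notch and Hedgehog genes gave 1 gene past 2-fold. Of 15 Notch genes 1 was lower, Dlk1, which is also imprinted, and of 6 Hedgehog genes measured none passed 2-fold in either direction; the transcription factor Gli3 stood at 10.2 FPKM after tenotomy and 7.10 FPKM after sham.

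Receptors for interleukins were among the higher signalling genes. Of 28 interleukin, TNF and growth receptor genes, 5 were higher and 1 lower (median 0.52). The receptors for interleukin-4 and interleukin-13, Il4ra and Il13ra1, were both higher: Il4ra stood at 32.4 FPKM after tenotomy and 10.6 FPKM after sham, and Il13ra1 was seen in 464 fragments after tenotomy and 140 after sham, a ratio per fragment sequenced of 2.70 (95% interval 2.23 to 3.29). Il1rl1, the receptor for interleukin-33, stood at 12.6 FPKM after tenotomy and 3.03 FPKM after sham, while Il33 itself stood at 8.74 FPKM after tenotomy and 7.98 FPKM after sham. Csf2rb, the shared chain of the receptors for interleukin-3, interleukin-5 and GM-CSF, (17.98 FPKM after tenotomy, 5.49 after sham) and Il1r1 (24.97 FPKM after tenotomy, 11.4 after sham) completed the higher genes. The TNF receptor Tnfrsf19 was the lower one (0.954 FPKM after tenotomy, 6.92 after sham). Of 13 chemokines and cytokines measured, 4 were higher and none lower (median 0.76), among them Cxcl16 (12.1 FPKM after tenotomy, 3.15 after sham), the stromal chemokine Cxcl12 (167 FPKM after tenotomy, 61.6 after sham) and the monocyte attractant Ccl2 (7.94 FPKM after tenotomy, 2.41 after sham). Of the 13, 5 reached the floor in the tenotomy library alone, Cxcl16 and Ccl2 among them.

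In the matrix, the elastic fibre list had 9 of 21 genes higher and none lower, with a median of 0.66, all 21 being measured. Fbln7, a cell-adhesive fibulin, stood at 27.7 FPKM after tenotomy and 3.72 FPKM after sham, 6.08-fold higher. Fbn2, the fibrillin of developing tissue, stood at 123 FPKM after tenotomy and 21.3 FPKM after sham. Fbn1, the fibrillin of adult microfibrils, stood at 295 FPKM after tenotomy and 321 FPKM after sham and elastin (Eln) at 183 FPKM after tenotomy and 147 FPKM after sham, neither past 2-fold. Fbln2, a fibulin that binds fibronectin and fibrillin, stood at 274 FPKM after tenotomy and 73.6 FPKM after sham. Emilin1, a glycoprotein at the surface of elastic fibres, stood at 101 FPKM after tenotomy and 29.97 FPKM after sham. Mfap2, a microfibril protein, was higher (119 FPKM after tenotomy, 44.8 after sham). Fbln5 (39.8 FPKM after tenotomy, 14.9 after sham) and Efemp2 (92.7 FPKM after tenotomy, 38.5 after sham), which are needed to assemble elastic fibres in mice, were higher too. Ltbp1, which tethers latent TGF-beta, (68.02 FPKM after tenotomy, 28.3 after sham) and Mmrn2 of endothelium (18.05 FPKM after tenotomy, 7.10 after sham) completed the higher genes.

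Of 17 basement membrane genes measured of 26 listed, 4 were higher and 2 lower (median 0.33). The SPARC-related calcium-binding proteins Smoc2 (51.04 FPKM after tenotomy, 9.92 after sham) and Smoc1 (50.6 FPKM after tenotomy, 15.4 after sham) were higher. So were the collagen XVIII gene Col18a1 (94.4 FPKM after tenotomy, 32.04 after sham) and the laminin chain Lamb1 (124 FPKM after tenotomy, 45.5 after sham). Nephronectin (Npnt), a ligand of integrin alpha8 beta1, (2.18 FPKM after tenotomy, 15.4 after sham) and Lama2 (8.35 FPKM after tenotomy, 21.3 after sham), the laminin chain around muscle fibres, were lower, in libraries that also differed in their muscle share as given above. The collagen IV genes Col4a1 (239 FPKM after tenotomy, 158 after sham) and Col4a2 (139 FPKM after tenotomy, 96.6 after sham) were within 2-fold.

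Enzymes that build and trim glycosaminoglycans, the sugar chains of proteoglycans and hyaluronan, were higher in 8 of 37 measured genes and lower in 1 (median 0.56). The chondroitin synthases Chsy1 and Chsy3 (20.2 FPKM after tenotomy, 9.03 after sham) and the enzyme that starts the chain, Csgalnact1 (22.6 FPKM after tenotomy, 7.45 after sham), were higher. Chsy1 was seen in 689 fragments after tenotomy and 154 after sham, a ratio per fragment sequenced of 3.65 (95% interval 3.06 to 4.38). Dermatan sulfate is made by Dsel (30.1 FPKM after tenotomy, 13.9 after sham) and Chst14 (15.3 FPKM after tenotomy, 7.10 after sham), which were higher too. The hyaluronan synthase Has2 stood at 12.4 FPKM after tenotomy and 5.27 FPKM after sham. Of the heparan sulfate enzymes, the sulfotransferase Hs2st1 (18.9 FPKM after tenotomy, 8.68 after sham) and the extracellular sulfatase Sulf2 (153 FPKM after tenotomy, 52.8 after sham) were higher. Ugp2, which makes UDP-glucose for these chains and for glycogen, was lower (31.5 FPKM after tenotomy, 94.9 after sham). Of 17 surface and matrix proteoglycans, the proteins that carry such chains, 2 were higher and 1 lower (median 0.19), the higher ones being lubricin (Prg4) (79.4 FPKM after tenotomy, 31.9 after sham) and Srgn (17.2 FPKM after tenotomy, 6.46 after sham), the proteoglycan of leukocyte granules. Versican (Vcan) stood at 96.5 FPKM after tenotomy and 68.2 FPKM after sham.

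Further matrix genes were read after their values were seen. Of the small leucine-rich proteoglycans, lumican (Lum) stood at 453 FPKM after tenotomy and 118 FPKM after sham and osteoglycin (Ogn) at 242 FPKM after tenotomy and 111 FPKM after sham, while decorin (Dcn) stood at 949 FPKM after tenotomy and 993 FPKM after sham and Fmod, given above, was lower. Matrix Gla protein (Mgp) stood at 471 FPKM after tenotomy and 147 FPKM after sham and the collagen-binding protein Aebp1 at 207 FPKM after tenotomy and 65.3 FPKM after sham. The short-chain collagens Col8a1 (31.4 FPKM after tenotomy, 12.04 after sham) and Col8a2 (59.1 FPKM after tenotomy, 23.1 after sham) and peroxidasin (Pxdn) (117 FPKM after tenotomy, 41.3 after sham), which crosslinks collagen IV, were higher. The integrin Itga11, a receptor for fibrillar collagen, stood at 49.3 FPKM after tenotomy and 9.87 FPKM after sham.

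Protease inhibitors differed widely among themselves. Of 22 measured of 35 listed, 8 were higher and 2 lower (median 0.41). Of the 22, 7 reached the floor in the tenotomy library alone and 1 in the sham library alone, so the direction of these genes is set by the floor. Prss35, Slpi, Tfpi2 and the stefins named here are among the 7. Apart from Prss35 and Slpi, which the list also holds, Timp1 (112 FPKM after tenotomy, 33.1 after sham), Serpina3n (45.2 FPKM after tenotomy, 13.2 after sham) and Tfpi2 (8.12 FPKM after tenotomy, 1.98 after sham) were higher. The stefins Stfa1 (12.1 FPKM after tenotomy, 0 after sham), Stfa2 (6.56 FPKM after tenotomy, 0 after sham) and Stfa3 (17.9 FPKM after tenotomy, 3.27 after sham) are cysteine protease inhibitors of neutrophils and lie in a cluster of near-identical copies, so the reads of 1 copy can be given to another. Wfdc1, a whey-acidic-protein inhibitor, was 6.81-fold lower (2.50 FPKM after tenotomy, 22.8 after sham), and Serpinb1a was lower (7.61 FPKM after tenotomy, 17.7 after sham). Of 17 genes of the Adamts list, which holds Adamts proteases and Adamts-like genes, 3 were higher and 1 lower (median -0.04). On the higher side were the aggrecanase Adamts4 (15.2 FPKM after tenotomy, 4.41 after sham), Adamts16 (8.24 FPKM after tenotomy, 2.19 after sham) and Adamts7 (7.59 FPKM after tenotomy, 2.69 after sham). On the lower side was the Adamts-like gene Adamtsl5 (2.65 FPKM after tenotomy, 13.6 after sham). Of the 17, 4 reached the floor in the tenotomy library alone, these 3 higher genes among them. Adamtsl5 reached it in the sham library alone, so the direction of all these genes is set by the floor. Adamts5, the other main aggrecanase, stood at 10.7 FPKM after tenotomy and 18.6 FPKM after sham. Of 12 C1q and angiopoietin-like secreted proteins, 2 were higher and 1 lower (median 0.40), the lower being the tendon gene Angptl7 (9.80 FPKM after tenotomy, 63.9 after sham). The 13 measured cartilage genes split into 6 higher and 4 lower (median 0.90), but at a pseudocount of 5 FPKM or a floor of 20 FPKM 2 more genes were lower than higher. Of the 13, 6 reached the floor of 5 FPKM in the tenotomy library alone, the collagen IX chains among them, and 1 in the sham library alone. The direction of these genes is set by the floor. The collagen IX chains Col9a1 (5.13 FPKM after tenotomy, 0.810 after sham), Col9a2 (6.82 FPKM after tenotomy, 2.05 after sham) and Col9a3 (5.53 FPKM after tenotomy, 1.27 after sham) were higher. Col2a1, the chain they decorate in cartilage fibrils, was lower (31.7 FPKM after tenotomy, 110.3 after sham).

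**Figure D3:**
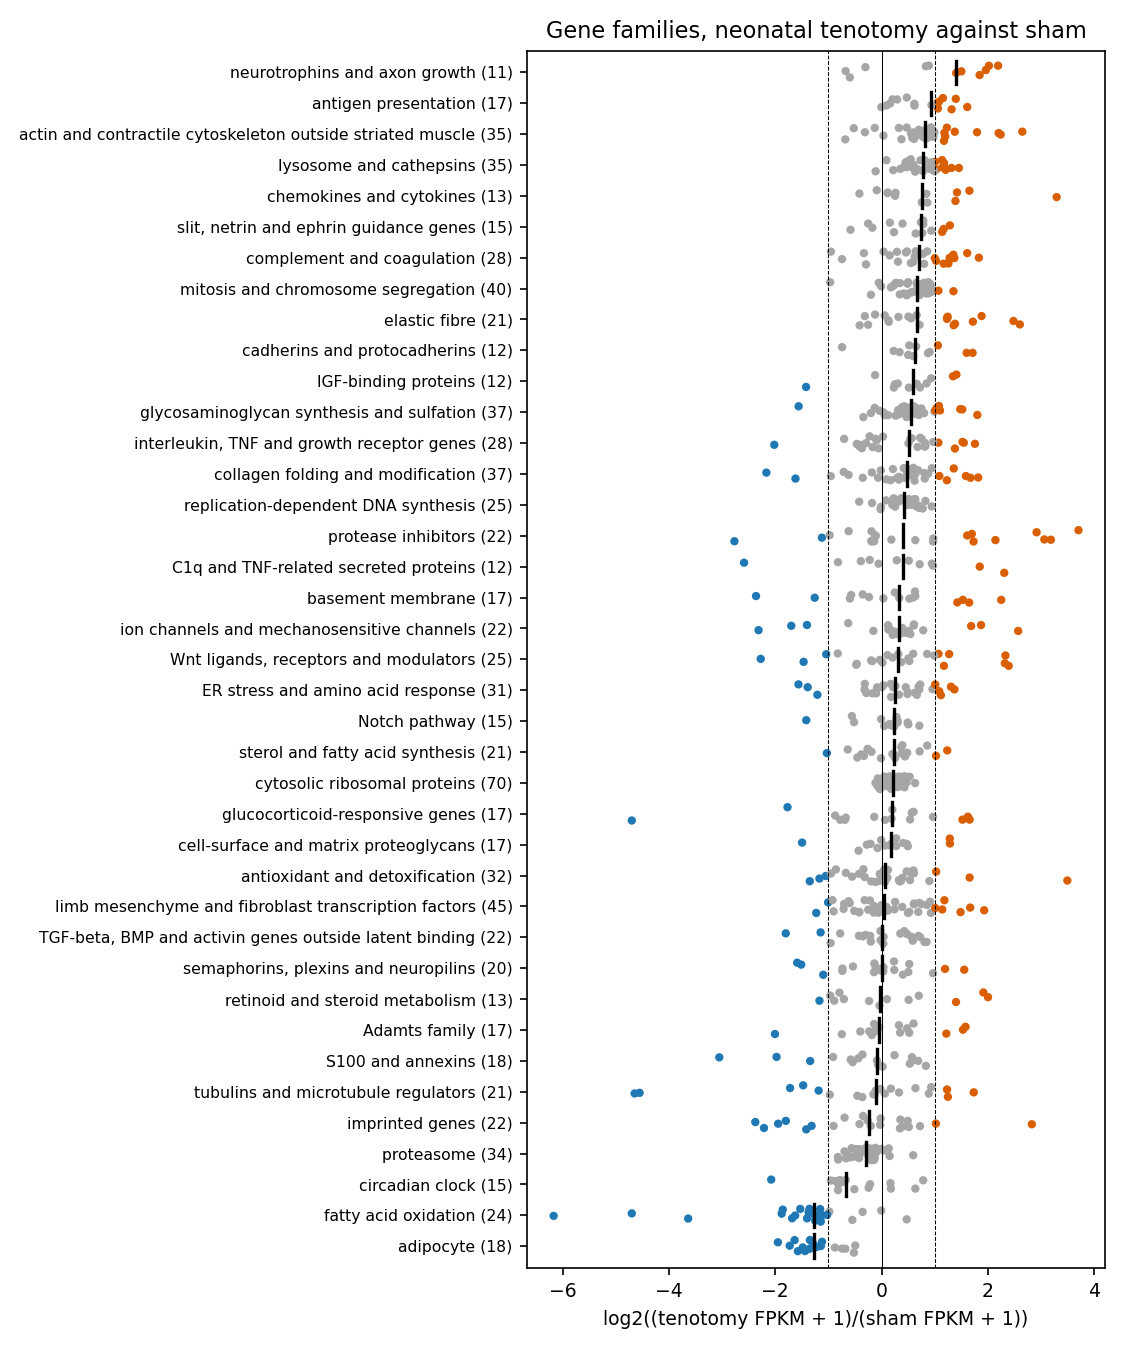
Log2 ratio of tenotomy over sham for each measured gene of 39 families with at least 10 genes measured, whose number stands in brackets. Points are genes, orange at 2-fold higher or more, blue at 2-fold lower or more and grey between, black bars are medians and dashed lines mark 2-fold. Medians run from 1.41 for the neurotrophin and axon growth list to -1.28 for the adipocyte list, against 0.01 for all genes.

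Collagen is hydroxylated, glycosylated and folded in the endoplasmic reticulum before it leaves the cell, and a share of the enzymes for it was higher after tenotomy. Of 37 such genes measured of 42 listed, 6 were higher and 2 lower (median 0.48). Plod2, the lysyl hydroxylase of collagen telopeptides, stood at 74.5 FPKM after tenotomy and 20.4 FPKM after sham, and the prolyl 4-hydroxylase subunit P4ha3 at 44.5 FPKM after tenotomy and 13.3 FPKM after sham. Fkbp11, a peptidyl-prolyl isomerase, (50.98 FPKM after tenotomy, 16.3 after sham) and Lepre1, a prolyl 3-hydroxylase, (65.9 FPKM after tenotomy, 25.1 after sham) were higher. The others were the lysyl hydroxylase Plod3 (56.8 FPKM after tenotomy, 23.6 after sham) and the prolyl 4-hydroxylase subunit P4hb (537 FPKM after tenotomy, 252 after sham). Serpinh1, the collagen chaperone HSP47, stood at 602 FPKM after tenotomy and 373 FPKM after sham. Lower were Tmem38b (3.78 FPKM after tenotomy, 20.5 after sham), a cation channel of the endoplasmic reticulum, and Pcolce2 (9.85 FPKM after tenotomy, 32.3 after sham), an enhancer of procollagen processing. The collagen I chains themselves were not higher: Col1a1 stood at 13214 FPKM after tenotomy and 22438 FPKM after sham and Col1a2 at 7021 FPKM after tenotomy and 11019 FPKM after sham.

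General folding genes of the endoplasmic reticulum and genes of the amino acid response belong to separate arms of the stress response. Of 31 genes measured of 35 listed, 5 were higher and 3 lower (median 0.26). The 5 were the disulfide isomerases Pdia3 (219 FPKM after tenotomy, 83.9 after sham), Pdia4 (67.00 FPKM after tenotomy, 31.03 after sham) and Pdia6 (101 FPKM after tenotomy, 49.9 after sham), the secreted stress protein Manf and the lectin chaperone calreticulin (Calr). Manf stood at 40.95 FPKM after tenotomy and 15.96 FPKM after sham and Calr at 399 FPKM after tenotomy and 183 FPKM after sham. Just under 2-fold lay the chaperones Hsp90b1 (182 FPKM after tenotomy, 93.2 after sham) and Hspa5 (BiP) (205 FPKM after tenotomy, 125 after sham). On the lower side stood genes known as targets of the kinase PERK and the amino acid response: Atf5 (25.99 FPKM after tenotomy, 78.7 after sham), Ddit3 (CHOP) (1.80 FPKM after tenotomy, 5.46 after sham) and Chac1. The last was seen in 7 fragments after tenotomy and 22 after sham, a ratio per fragment sequenced of 0.26 (95% interval 0.09 to 0.63). Their upstream factor Atf4 stood at 56.2 FPKM after tenotomy and 70.3 FPKM after sham, and Asns, another of its targets, at 9.33 FPKM after tenotomy and 10.1 FPKM after sham. The folding genes and the PERK-linked genes named here lay on opposite sides of 0. Ddit3 and Chac1, however, reached the floor in the sham library alone, so their direction is set by the floor. Of the 3 lower genes only Atf5 reached the floor in both libraries. Read after the values were seen, Pdia5, a further disulfide isomerase, stood at 35.7 FPKM after tenotomy and 7.85 FPKM after sham, the translocation channel gene Sec61a1 at 171 FPKM after tenotomy and 73.99 FPKM after sham and the signal peptidase subunit Sec11a at 69.2 FPKM after tenotomy and 29.9 FPKM after sham.

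Promoters of the folding genes are known for the ER stress response element (ERSE), a CCAAT box and a CCACG spaced so that the factors NF-Y and ATF6 can bind side by side. Promoters of 250 bases before to 50 after the gene start, from RefSeq on GRCm38.p6, were searched for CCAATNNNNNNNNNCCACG on both strands. It was found in 39 of 32851 promoters (0.119%) and in 7 of the 31 listed genes that had a promoter entry: Hspa5, Hsp90b1, Calr, Canx, Pdia6, Dnajc3 and Creld2. Of these 7, all measured, 2 were higher and none lower (median log2 ratio 0.71), and of the 20 other measured genes with an entry 2 were higher (median -0.04). The list holds both folding genes, which are known for this element, and PERK-linked genes, so the contrast of medians was not a test of the element. A match of letters describes the window only. The promoters of 4 of them are shown because they carry the element beside the values above, with the ERSE in capitals, written in the sense of the gene.
Calr, chr8:84846882-84847181, minus strand: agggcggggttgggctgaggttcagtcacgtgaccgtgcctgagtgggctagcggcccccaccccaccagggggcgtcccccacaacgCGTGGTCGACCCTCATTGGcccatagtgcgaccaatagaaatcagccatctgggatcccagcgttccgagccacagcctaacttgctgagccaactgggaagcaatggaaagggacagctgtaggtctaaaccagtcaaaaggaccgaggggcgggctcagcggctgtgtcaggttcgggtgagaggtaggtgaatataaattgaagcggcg
Pdia6, chr12:17266339-17266638, plus strand: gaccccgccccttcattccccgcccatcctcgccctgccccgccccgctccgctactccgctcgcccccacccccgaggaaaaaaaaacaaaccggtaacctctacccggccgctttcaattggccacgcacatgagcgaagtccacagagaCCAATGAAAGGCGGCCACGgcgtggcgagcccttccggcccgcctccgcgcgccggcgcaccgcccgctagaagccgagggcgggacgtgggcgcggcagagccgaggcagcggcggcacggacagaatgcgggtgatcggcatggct
Hspa5, chr2:34771840-34772139, plus strand: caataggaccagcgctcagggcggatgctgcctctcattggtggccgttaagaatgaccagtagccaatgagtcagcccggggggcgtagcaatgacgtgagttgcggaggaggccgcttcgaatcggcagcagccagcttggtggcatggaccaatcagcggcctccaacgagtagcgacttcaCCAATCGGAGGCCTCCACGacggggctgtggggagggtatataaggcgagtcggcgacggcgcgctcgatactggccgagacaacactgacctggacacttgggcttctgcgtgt
Hsp90b1, chr10:86705395-86705694, minus strand: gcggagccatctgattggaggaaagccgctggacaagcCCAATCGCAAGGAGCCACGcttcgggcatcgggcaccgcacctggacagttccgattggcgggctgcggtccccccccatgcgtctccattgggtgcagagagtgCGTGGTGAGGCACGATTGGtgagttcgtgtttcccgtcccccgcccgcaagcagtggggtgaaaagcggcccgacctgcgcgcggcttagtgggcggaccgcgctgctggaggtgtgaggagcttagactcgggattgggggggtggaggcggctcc
Calr and Pdia6 passed 2-fold and Hspa5 and Hsp90b1 did not. Pdia6 and Hspa5 carry the element once in the sense direction, Calr carries it once as its reverse complement, and Hsp90b1 carries it in both directions.

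**Figure D4:**
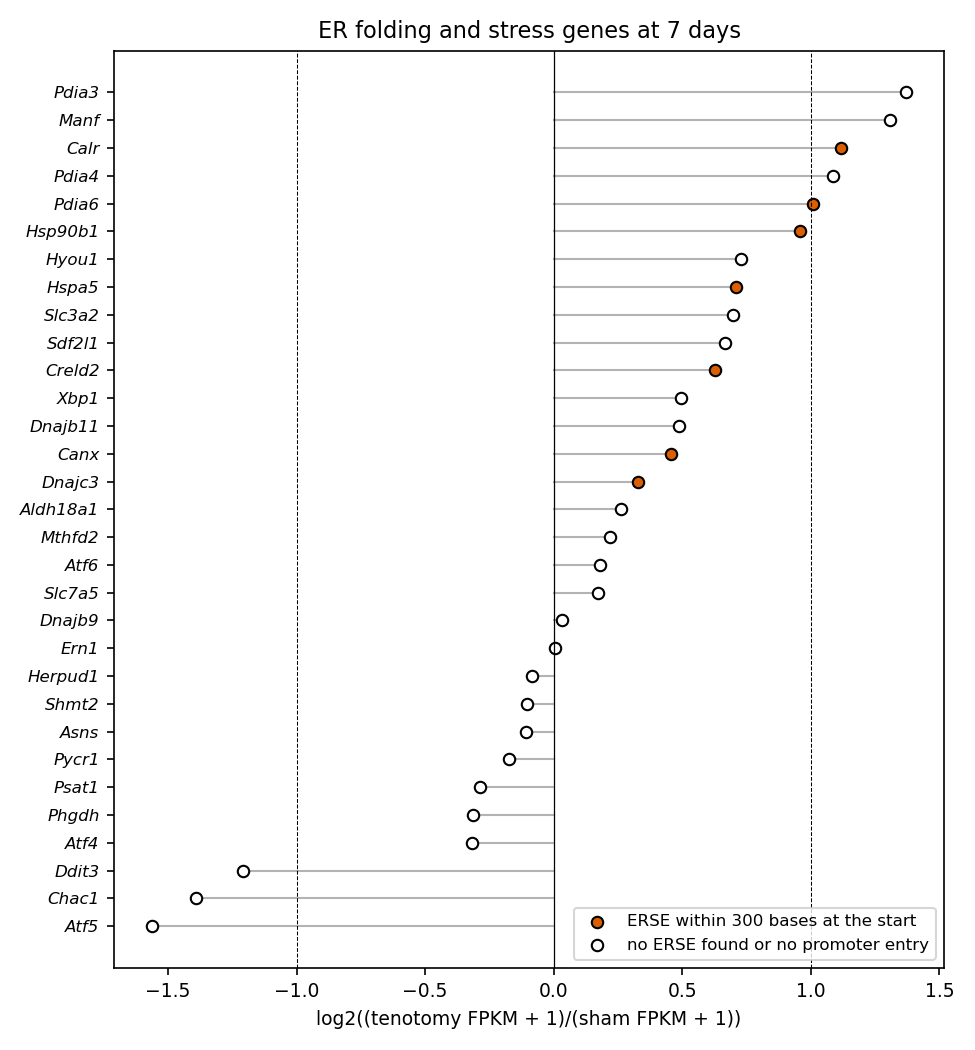
Log2 ratio of tenotomy over sham for the 31 measured genes of the endoplasmic reticulum folding and stress list, in order. Filled points have an ERSE within the promoter window searched, open points have none found or no promoter entry, and dashed lines mark 2-fold. All 7 filled points lie above 0, and Atf5, Chac1 and Ddit3 lie at the low end.

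The cytoskeleton of contractile cells was described by a list of its own. Of 35 actin and contractile genes outside striated muscle measured of 36 listed, 9 were higher and none lower, with a median of 0.82 and 31 of 35 ratios above 0. Cnn1, calponin of smooth muscle, stood at 5.27 FPKM after tenotomy and 0 FPKM after sham. The enteric smooth muscle actin Actg2 (12.8 FPKM after tenotomy, 1.99 after sham), the crosslinkers Actn1 (88.3 FPKM after tenotomy, 24.7 after sham) and Flna (222 FPKM after tenotomy, 84.8 after sham) were higher. So were nonmuscle myosin Myh9 (127 FPKM after tenotomy, 53.6 after sham), Cnn3 (169.8 FPKM after tenotomy, 74.2 after sham) and the focal adhesion protein Zyx (47.9 FPKM after tenotomy, 20.6 after sham). The other higher genes, Tagln and Acta2, are also on the activated fibroblast list. The most abundant members, Actb (1573 FPKM after tenotomy, 824 after sham) and Actg1 (1019.8 FPKM after tenotomy, 518 after sham), lay just under 2-fold. Smooth muscle cells have the same genes, and of 12 pericyte and smooth muscle markers measured 4 were higher and 1, Des, was lower. Myh11, the myosin heavy chain that marks smooth muscle, stood at 6.26 FPKM after tenotomy and 2.99 FPKM after sham and the pericyte gene Rgs5 at 144 FPKM after tenotomy and 93.3 FPKM after sham. Their part in the result was not tested. A CArG box, the element bound by serum response factor, was found on both strands in 535 promoters (1.63%) and in 5 of 31 contractile genes with an entry (Actg1, Cnn2, Myl6, Myl9 and Vcl). Of these 5, 0 passed 2-fold (median 0.86), against 7 of 25 without a match (median 0.76). Only exact matches in the same promoter window were sought, so a gene without a match can carry a looser or more distant box.

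Tubulin genes split by isotype. Of 21 tubulin and microtubule genes, 3 were higher and 5 lower (median -0.11). Tubb2b (30.4 FPKM after tenotomy, 8.42 after sham), Tubb2a (88.8 FPKM after tenotomy, 37.2 after sham) and Tuba1c (17.3 FPKM after tenotomy, 6.69 after sham) were higher. The lower tubulins were Tuba4a (2.13 FPKM after tenotomy, 77.5 after sham), Tuba8 (0.246 FPKM after tenotomy, 28.2 after sham) and Tubb4b (55.1 FPKM after tenotomy, 126 after sham). The microtubule tip protein Mapre3 (4.45 FPKM after tenotomy, 14.2 after sham) and the sheath gene Tppp3 (68.2 FPKM after tenotomy, 227 after sham) were lower too. Tuba4a, Tuba8 and Mapre3 are also expressed in muscle, whose share differed as given above, and its part was not tested. Among 12 cadherins, N-cadherin (Cdh2) (13.04 FPKM after tenotomy, 3.28 after sham), the mesenchymal cadherin Cdh11 (79.7 FPKM after tenotomy, 25.6 after sham) and Pcdh19 (13.1 FPKM after tenotomy, 5.75 after sham) were higher and none lower (median 0.62). The endothelial Cdh5 stood at 63.3 FPKM after tenotomy and 39.97 FPKM after sham.

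The macrophage and monocyte list had 32 of 59 genes higher and none lower, with a summed level of 2829 FPKM after tenotomy and 1261 FPKM after sham. Of the 59, 18 reached the floor in the tenotomy library alone, so the direction of these 18 is set by the floor. Of 65 genes found on the list, 0 were listed at 0 after tenotomy and 1 after sham. Beside it, 9 of 35 lysosome genes were higher and none lower (median 0.78), and 34 of 35 ratios were above 0. The collagen-degrading cathepsin K (Ctsk) was seen in 1081 fragments after tenotomy and 319 after sham, a ratio per fragment sequenced of 2.77 (95% interval 2.44 to 3.14). Cathepsin B (Ctsb) stood at 268 FPKM after tenotomy and 107 FPKM after sham and the tetraspanin Cd63 at 591 FPKM after tenotomy and 257 FPKM after sham. The sugar-cleaving enzymes Glb1 (20.9 FPKM after tenotomy, 8.48 after sham) and Gusb (47.9 FPKM after tenotomy, 20.6 after sham) and the acid lipase Lipa (30.5 FPKM after tenotomy, 13.2 after sham) were higher. Of 17 antigen presentation genes, 8 were higher and none lower (median 0.94), and 4 of the 17 reached the floor in the tenotomy library alone. The class II genes H2-Ab1 (42.99 FPKM after tenotomy, 13.4 after sham), H2-Eb1 (26.3 FPKM after tenotomy, 9.35 after sham) and H2-Aa (50.1 FPKM after tenotomy, 19.5 after sham) led. The class I light chain B2m stood at 316 FPKM after tenotomy and 153 FPKM after sham. Class I heavy chains H2-K1 (69.9 FPKM after tenotomy, 50.03 after sham) and H2-D1 (133 FPKM after tenotomy, 109 after sham) were within 2-fold. The part of the macrophage genes in these values was not tested.

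Of 28 complement and coagulation genes, 10 were higher and none lower (median 0.70). They included the protease inhibitor Serpine2 (70.5 FPKM after tenotomy, 28.9 after sham) and a plasminogen activator that it can block, Plat (21.4 FPKM after tenotomy, 7.67 after sham). The anticoagulant protein S (Pros1) (43.4 FPKM after tenotomy, 17.3 after sham) and the thrombin receptor F2r (31.1 FPKM after tenotomy, 13.3 after sham) were higher as well. In the complement system, properdin (Cfp) (16.5 FPKM after tenotomy, 6.16 after sham) and the central component C3 (43.5 FPKM after tenotomy, 21.2 after sham) were higher. C3ar1, the receptor for the C3a fragment, was seen in 221 fragments after tenotomy and 64 after sham, a ratio per fragment sequenced of 2.82 (95% interval 2.12 to 3.78).

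The neutrophil genes found, 15 of 16 listed, summed to 130.3 FPKM after tenotomy and 29.1 FPKM after sham. Of the 7 that reached the floor, 5 did so in the tenotomy library alone, so that their direction is largely set by the floor. The 7 were S100a9 (22.6 FPKM after tenotomy, 4.92 after sham), S100a8 (42.3 FPKM after tenotomy, 14.3 after sham), Lcn2 (19.4 FPKM after tenotomy, 5.60 after sham), Ngp and 3 stefin genes that share near-identical copies. Ngp rested on 31 fragments after tenotomy and 5 after sham, a ratio per fragment sequenced of 5.06 (95% interval 1.95 to 16.66). Of 6 osteoclast genes 4 were higher (median 1.45), Mmp9, the proton pump subunit Atp6v0d2 (5.16 FPKM after tenotomy, 0.647 after sham), Ctsk and the tartrate-resistant phosphatase Acp5 (52.2 FPKM after tenotomy, 18.6 after sham). Mmp9 and Atp6v0d2 reached the floor in the tenotomy library alone, so their direction is set by the floor. Mast cell genes were measured in 4 cases, with 1 higher, the carboxypeptidase Cpa3 (33.9 FPKM after tenotomy, 15.7 after sham), and no lymphocyte gene reached the floor. Of 20 endothelial genes, 4 were higher and none lower (median 0.65), led by Vwf (25.7 FPKM after tenotomy, 9.85 after sham) and Emcn (24.3 FPKM after tenotomy, 11.2 after sham). Pecam1 stood at 88.7 FPKM after tenotomy and 53.3 FPKM after sham. Of 5 lymphatic genes 1 was lower, the transcription factor Prox1 (3.10 FPKM after tenotomy, 7.31 after sham), which muscle also expresses, and Lyve1 stood at 22.5 FPKM after tenotomy and 13.5 FPKM after sham. With both libraries at a common sum over all entries, 1 more lymphatic gene was higher than lower.

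Among 45 limb and fibroblast transcription factors measured of 79 listed, 6 were higher and 2 lower (median 0.05). Runx1 (41.1 FPKM after tenotomy, 10.03 after sham), a Runt factor of blood and injured mesenchyme, Runx2 (5.42 FPKM after tenotomy, 1.02 after sham), the factor of bone-forming cells, and Sox9, the factor of cartilage, were higher. Sox9 was seen in 146 fragments after tenotomy and 36 after sham, a ratio per fragment sequenced of 3.31 (95% interval 2.28 to 4.91). Twist1 (19.5 FPKM after tenotomy, 8.30 after sham), Sox4 (35.97 FPKM after tenotomy, 17.3 after sham) and Eya2 (8.76 FPKM after tenotomy, 3.30 after sham) completed the higher genes. The lower ones were Sox6 (2.56 FPKM after tenotomy, 7.34 after sham) and Eya4 (3.36 FPKM after tenotomy, 7.76 after sham). Of 3 bone-forming genes measured only Runx2 was higher, and osteocalcin (Bglap) stood at 18.1 FPKM after tenotomy and 21.7 FPKM after sham. Genes of position along the limb were within the same bounds: the 5 Hox genes measured of 38 listed were all within 2-fold (median -0.21), among them Hoxa11 (15.3 FPKM after tenotomy, 11.8 after sham). So were the hindlimb factors Pitx1 (13.4 FPKM after tenotomy, 12.3 after sham) and Tbx4 (7.70 FPKM after tenotomy, 8.63 after sham). Of 22 ion channels 3 were higher and 3 lower (median 0.33). Kcnj15, an inward rectifier, (8.17 FPKM after tenotomy, 0.543 after sham), the channel subunit Kcne4 (12.9 FPKM after tenotomy, 2.80 after sham) and Trpv2 (6.92 FPKM after tenotomy, 1.46 after sham) were higher. Of the 22, 5 reached the floor in the tenotomy library alone, these 3 among them, and 2 in the sham library alone. The direction of these genes is set by the floor. The mechanosensitive channels Piezo1 (36.8 FPKM after tenotomy, 28.3 after sham) and Piezo2 (23.3 FPKM after tenotomy, 14.95 after sham) were within 2-fold.

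Imprinted genes, expressed from 1 parental copy and known for their roles in fetal growth, did not move together. Of 22 measured of 29 listed, 2 were higher and 6 lower (median -0.23). Mest, expressed from the paternal copy, stood at 754 FPKM after tenotomy and 105 FPKM after sham, 7.10-fold higher, and Plagl1, a zinc finger gene that regulates other imprinted genes, at 78.4 FPKM after tenotomy and 38.1 FPKM after sham. The 6 lower genes were Nnat (14.01 FPKM after tenotomy, 76.9 after sham) and 5 genes of 1 cluster on chromosome 12, reaching from Dlk1 (GRCm38 chr12:109452485-109463336) to Mirg (chr12:109734981-109749458). Of the noncoding RNAs in that cluster, Rian stood at 68.4 FPKM after tenotomy and 266 FPKM after sham, Mirg at 2.48 FPKM after tenotomy and 15.1 FPKM after sham and Meg3 at 56.2 FPKM after tenotomy and 141 FPKM after sham. Of its protein-coding genes, Rtl1 stood at 2.85 FPKM after tenotomy and 12.4 FPKM after sham and Dlk1 at 16.8 FPKM after tenotomy and 46.5 FPKM after sham. The cluster includes genes of both parental copies, since Dlk1 and Rtl1 are paternal and Meg3, Rian and Mirg are maternal RNAs, and both kinds were lower. Developing muscle is known to express this cluster, the muscle lists were lower in the same library as given above, and their part was not tested. Igf2 (1226 FPKM after tenotomy, 858 after sham) and H19 (1217 FPKM after tenotomy, 1622 after sham), neighbours in another cluster, lay on either side of 0, within 2-fold.

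Counts of cell division genes are set beside the shares over all genes measured, 5.55% higher and 10.3% lower. Of 40 mitosis genes measured, 2 were higher, Plk1 (8.20 FPKM after tenotomy, 2.60 after sham) and Birc5 (11.1 FPKM after tenotomy, 4.78 after sham), and none lower, while 36 of 40 ratios lay above 0 (median 0.68). Of the 40, 17 reached the floor in the tenotomy library alone, Plk1 and Birc5 among them, so the direction of these 17 is set by the floor. Of 25 DNA synthesis genes none passed 2-fold (median 0.42), among them Pcna (60.9 FPKM after tenotomy, 48.8 after sham) and Mcm6 (20.4 FPKM after tenotomy, 14.1 after sham). Mki67, which marks cycling cells, stood at 19.2 FPKM after tenotomy and 13.4 FPKM after sham. Histone genes read by name gave 4 of 47 higher and none lower (median 0.38), with copies that share reads. All 70 ribosomal protein genes measured (median 0.21) and all 34 proteasome genes measured (median -0.30) were within 2-fold. Rpl26 is listed at 0 in both libraries and Rpl30 at 2.84 FPKM after tenotomy and 0 FPKM after sham, so a listed 0 can be a failed estimate even for a gene that all cells use.

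On the lower side, genes of fatty acid oxidation, which are most active in muscle, heart and fat, stood out by number. Of 24 measured of 26 listed, 19 were lower and none higher (median -1.27). Fabp3, the fatty acid carrier of heart and muscle, stood at 2.72 FPKM after tenotomy and 267 FPKM after sham, 72.04-fold lower. Pdk4, which holds back glucose oxidation, stood at 1.87 FPKM after tenotomy and 73.7 FPKM after sham. The muscle form of carnitine palmitoyltransferase, Cpt1b, stood at 1.47 FPKM after tenotomy and 29.8 FPKM after sham. Lower too were enzymes that other tissues share, among them Etfb (45.8 FPKM after tenotomy, 171 after sham), Acsl1 (34.9 FPKM after tenotomy, 129 after sham), Acadm (25.3 FPKM after tenotomy, 83.5 after sham) and Hadha (22.6 FPKM after tenotomy, 60.02 after sham). The liver form Cpt1a stood at 21.3 FPKM after tenotomy and 15.04 FPKM after sham. The share of mature muscle genes, 0.168% of FPKM after tenotomy and 9.89% after sham, moved with this list and its part was not tested.

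Fat cell genes were lower as well, in 13 of 18 measured genes with none higher (median -1.28), and all 18 ratios were below 0. Car3, the carbonic anhydrase of fat and slow muscle, stood at 219 FPKM after tenotomy and 848 FPKM after sham. The hormones resistin (Retn) (8.58 FPKM after tenotomy, 30.7 after sham) and adiponectin (Adipoq) (57.8 FPKM after tenotomy, 129 after sham) were lower. So were the perilipins of the lipid droplet, Plin4 (11.6 FPKM after tenotomy, 38.1 after sham) and Plin1 (26.9 FPKM after tenotomy, 74.8 after sham), and the fatty acid carrier Fabp4 (484 FPKM after tenotomy, 1232 after sham). Pparg, the factor that directs fat cell formation, stood at 9.21 FPKM after tenotomy and 13.4 FPKM after sham. The list took 0.335% of the FPKM of ordinary genes after tenotomy and 0.806% after sham. Genes of sterol and fatty acid synthesis, by contrast, had 2 of 21 higher, among them the cholesterol enzyme Cyp51 (7.93 FPKM after tenotomy, 2.79 after sham), and 1 lower, Acss2 (3.24 FPKM after tenotomy, 7.65 after sham) (median 0.23).

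Hair and skin transcripts were present in the sham library and low or listed at 0 after tenotomy. The 19 hair follicle genes found summed to 13.7 FPKM after tenotomy and 488 FPKM after sham, and the 52 keratin-associated protein genes found by name to 34.7 FPKM after tenotomy and 1107 FPKM after sham. Of these, 12 hair follicle genes and 32 keratin-associated genes reached the floor, each in the sham library alone, as did 3 of 13 keratinocyte genes, so their direction is largely set by the floor and their count is not read as a result. Krtap8-1 (4.72 FPKM after tenotomy, 106 after sham), Krtap15 (2.37 FPKM after tenotomy, 85.6 after sham) and the hair keratin Krt71 (2.62 FPKM after tenotomy, 54.7 after sham) were among the most abundant in the sham library. Krt27 stood at 0 FPKM after tenotomy and 36.8 FPKM after sham. Keratin-associated genes took 0.0101% of the FPKM of ordinary genes after tenotomy and 0.293% after sham. Red cell genes were lower in 4 of 4 cases, with Alas2, the haem enzyme of red cell precursors, at 10.9 FPKM after tenotomy and 25.2 FPKM after sham. Of the 4, 2 reached the floor in the sham library alone, so the direction of those 2 is set by the floor. The globin genes are near-identical copies between which reads can be split. Of the 15 lowest genes outside the set-aside lists, several are known from striated muscle (Smtnl1, Klhl31, Myl6b, Myom3, Myo18b, Atp1b4 and Chchd10). So is Fabp3, given above as a carrier of heart and muscle, and the others were Hbb-b2 and 6 hair genes.

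Antioxidant genes differed in both directions apart from Gpx3. Of 32 measured, 3 were higher and 3 lower (median 0.06). Metallothionein Mt1 (58.2 FPKM after tenotomy, 17.8 after sham) and haem oxygenase Hmox1 (41.7 FPKM after tenotomy, 19.9 after sham) were higher, and the mitochondrial enzymes Sod2 (9.34 FPKM after tenotomy, 25.4 after sham) and Prdx3 were lower, as was Aldh1a1. Prdx3 was seen in 120 fragments after tenotomy and 206 after sham, a ratio per fragment sequenced of 0.48 (95% interval 0.38 to 0.60). Genes known to respond to glucocorticoids split likewise, with 3 of 17 higher and 2 lower (median 0.19): Fkbp5 (12.9 FPKM after tenotomy, 3.84 after sham), Mt1 and Lcn2 on one side, and Zbtb16 (2.17 FPKM after tenotomy, 9.82 after sham) and Pdk4 on the other. Tsc22d3, a widely used marker of that response, stood at 28.95 FPKM after tenotomy and 47.3 FPKM after sham. Clock genes were lower in 1 of 15 cases and higher in none (median -0.67), and 11 of 15 ratios lay below 0. Tef (17.2 FPKM after tenotomy, 34.2 after sham), Cry2 (11.7 FPKM after tenotomy, 22.2 after sham) and Dbp (8.01 FPKM after tenotomy, 13.8 after sham) were among them, under 2-fold. The core activators Arntl (7.65 FPKM after tenotomy, 6.70 after sham) and Clock (9.02 FPKM after tenotomy, 10.9 after sham) differed little. The labels give no time of day for the sampling. Of 18 genes of the S100 and annexin list, which leaves out S100a8 and S100a9 of the neutrophil list, 3 were lower and none higher (median -0.08). These were the hair protein S100a3 (1.17 FPKM after tenotomy, 17.03 after sham), the muscle protein S100a1 (10.1 FPKM after tenotomy, 42.6 after sham) and the epithelial S100a14 (1.38 FPKM after tenotomy, 5.03 after sham).

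Genes of transport, the low-oxygen response and adhesion were read after their values were seen, with no list. Slc2a1, the glucose transporter GLUT1, stood at 15.4 FPKM after tenotomy and 3.61 FPKM after sham. The iron exporter Slc40a1 stood at 43.3 FPKM after tenotomy and 11.9 FPKM after sham. Hif1a, the factor of the low-oxygen response, stood at 109.9 FPKM after tenotomy and 47.3 FPKM after sham. Other genes known to respond to low oxygen were lower: the carbonic anhydrase Car9 (2.42 FPKM after tenotomy, 23.2 after sham), the glycolytic enzyme Aldoa (215 FPKM after tenotomy, 983 after sham), which muscle also expresses, and the prolyl hydroxylase Egln3 (1.35 FPKM after tenotomy, 7.83 after sham). Bnip3, a mitochondrial protein of the same response, stood at 33.00 FPKM after tenotomy and 56.3 FPKM after sham. Genes of that response thus lay on both sides of 0. Enpp1, which makes pyrophosphate outside the cell and so holds back mineral, stood at 61.6 FPKM after tenotomy and 12.1 FPKM after sham. The adhesion molecules Vcam1 (12.4 FPKM after tenotomy, 3.15 after sham) and Icam1 (17.1 FPKM after tenotomy, 6.69 after sham) were higher. Atf3, an early stress factor, was lower (4.79 FPKM after tenotomy, 28.3 after sham). Of fibroblast genes from the adventitia around vessels and tendons, 1 of 16 was higher, Gpx3, and 3 were lower, Dpp4 (1.77 FPKM after tenotomy, 7.46 after sham), Pcolce2 and Sema3c (median -0.16). The progenitor markers Cd34 (124 FPKM after tenotomy, 142 after sham), Ly6a (163 FPKM after tenotomy, 124 after sham) and Pi16 (28.3 FPKM after tenotomy, 30.8 after sham) were within 2-fold. Of 8 sheath and synovial genes 2 were higher, Prg4 and Has2, and 3 lower, Clic5 (5.54 FPKM after tenotomy, 31.5 after sham), Tppp3 and Sema3c (median -0.92).

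The adult pools give a second pair of libraries from the same operations, and values are set beside the neonatal ones with no test. At 6 months 9001 genes were measured, of which 866 were higher after tenotomy (9.62%) and 1067 lower (11.9%). Of the 523 genes higher in neonates, 236 were also higher in adults, which is 45.1% of the neonatal and 27.3% of the adult higher genes, 187 were within 2-fold, 9 were lower and 91 did not reach the floor. Of the 973 lower genes 500 were also lower in adults, 51.4% of the neonatal and 46.9% of the adult lower genes, and 22 were higher. Mest (79.6 FPKM after tenotomy, 5.58 after sham), C1qtnf3 (116 FPKM after tenotomy, 7.74 after sham), Mmp9 (56.3 FPKM after tenotomy, 4.16 after sham) and Csrp2 (81.4 FPKM after tenotomy, 17.6 after sham) were higher in adults too. Other genes that led in neonates were within 2-fold in adults. Gpx3 stood at 241 FPKM after tenotomy and 312 FPKM after sham in adults. Fbln7 stood there at 6.07 FPKM after tenotomy and 8.40 FPKM after sham and Edil3 at 7.21 FPKM after tenotomy and 5.85 FPKM after sham. Mdk (10.4 FPKM after tenotomy, 0 after sham), Plod2 (40.6 FPKM after tenotomy, 30.7 after sham) and Sfrp1 (35.4 FPKM after tenotomy, 8.92 after sham) are given as the adult values of genes described above.

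**Figure D5:**
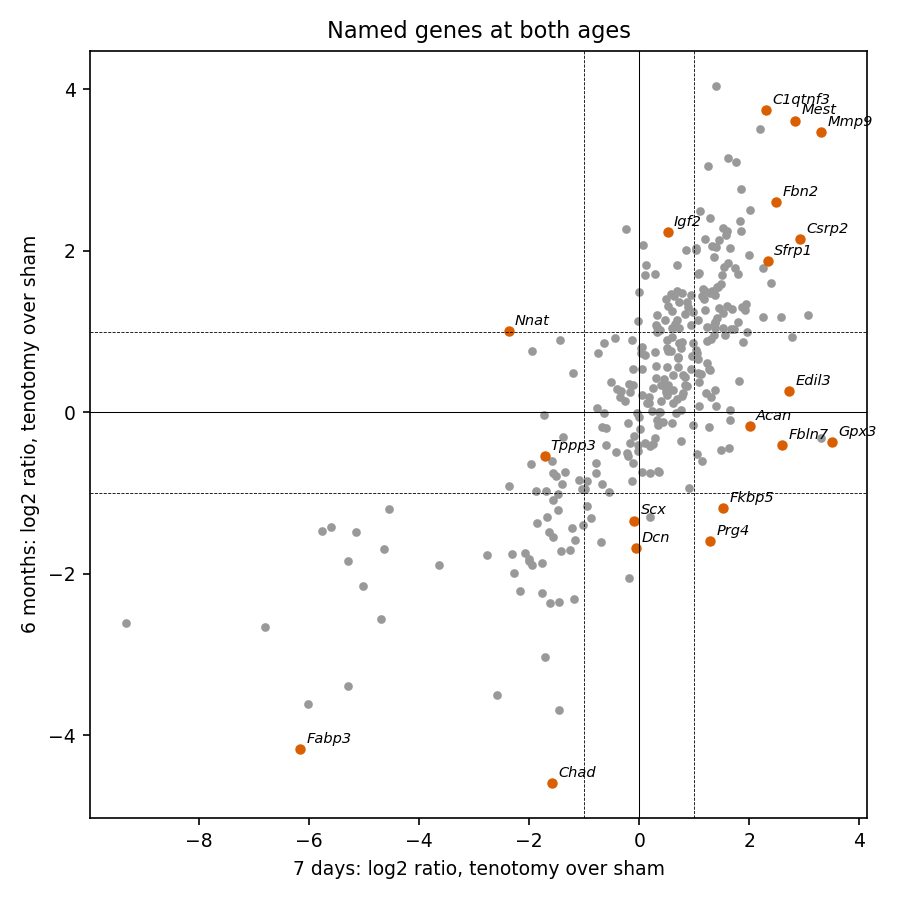
Log2 ratio of tenotomy over sham at 7 days (horizontal) and at 6 months (vertical) for 311 genes measured at both ages and named by rule; orange points carry their names and dashed lines mark 2-fold. Mest, C1qtnf3, Mmp9, Fbn2, Csrp2 and Sfrp1 lie far from 0 on both axes, while Gpx3, Fbln7 and Edil3 lie far from 0 at 7 days only, and Nnat, Fkbp5 and Prg4 lie on opposite sides at the 2 ages.

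Of 10476 genes that the authors' deposited table marks as testable at 7 days, it calls 90, with 3 higher after tenotomy (0.0286%) and 87 lower (0.83%). The 3 higher calls in the authors' deposited table are Gpx3, Mmp9 and Slc9b2, a sodium and proton exchanger of osteoclasts (3.87 FPKM after tenotomy and listed at 0 after sham). Of the 87 lower calls in the authors' deposited table, 42 are on a muscle list, 9 are keratin or keratin-associated genes by name and 36 are neither, and 72 of the 90 genes called are listed at 0 in a library. The 36 can still include muscle genes, since the muscle lists are not complete: Smtnl1 and Atp1b4, named above as known from striated muscle, are among them. At 6 months the authors' deposited table calls no gene, with a smallest q-value of 0.0742.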

How the data were processed

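RNA of each pool was sequenced once. Per the labels' protocols, RNA integrity values were below 8, 10 ng of RNA went into directional libraries after ribosomal RNA depletion, and the MiSeq instrument gave paired reads of 75 bases. TopHat, Cufflinks and mm10 appear in the submitters' processing notes, with neither versions nor roles, and the gene annotation used is not stated there. The authors deposited a gene comparison table per age with 23351 lines, whose expression values were taken as FPKM from the table's layout and from Cufflinks being named. Per the file headers, the authors' deposited tables also hold p-values and q-values for each gene, which with 1 pool a group do not hold the spread between animals. No source used here says how the FPKM of a pair of libraries were scaled to each other.

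Each ratio had 1 FPKM added to both libraries as a pseudocount, was kept where either library reached 5 FPKM, and was called from a log2 ratio of 1. No test was made. Of 1758 symbols in 61 lists, 1720 were found, with keratin-associated and histone genes added by name. Depth came from the FPKM steps of single-transcript genes of GENCODE M21, whose low values were whole fragments within 0.1 for 92.1% (tenotomy) and 93.7% (sham). Single-transcript genes therefore have fragment counts, with exact 95% intervals for counting error only. Named genes are the 15 highest and 15 lowest at 10 FPKM or more without small, mitochondrial and predicted genes and the muscle, macrophage and activated fibroblast lists, up to 6 members per list past 2-fold and up to 3 abundant ones within it, and a few tendon genes. Some genes that the rule names are not reported here. Genes called read after their values were seen, and further list members beside them, fall outside that rule. The members, lists and rules were chosen with earlier results of these data known. The calling and depth steps were tested on simulated data. The tools were matplotlib 3.10.9, SciPy 1.17.1, pandas 2.3.3 and NumPy 2.4.6, run under Python 3.11.15.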

Additional observations from a re-analysis of the deposited data

Results flagged for a closer look

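Genes past 2-fold in opposite directions at the 2 ages drew attention, with 1 pool a group and the difference between ages not tested. Fkbp5, a chaperone partner of the glucocorticoid receptor, had a log2 ratio of tenotomy over sham of 1.52 at 7 days (12.9 FPKM after tenotomy, 3.84 after sham) and of -1.19 at 6 months (16.9 FPKM after tenotomy, 39.8 after sham). Prg4, which encodes the joint lubricant lubricin, had a log2 ratio of 1.29 at 7 days (79.4 FPKM after tenotomy, 31.9 after sham) and of -1.60 at 6 months (179 FPKM after tenotomy, 544 after sham). Nnat, the imprinted gene neuronatin, had a log2 ratio of -2.38 at 7 days (14.01 FPKM after tenotomy, 76.9 after sham) and of 1.01 at 6 months (12.01 FPKM after tenotomy, 5.48 after sham).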

How the results depend on the processing

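The counts of 523 higher and 973 lower genes stayed within 1.5 times under a pseudocount of 0.1, floors of 1 and 0 FPKM, every scaling tried and single-gene entries alone. A pseudocount of 5 FPKM left 255 higher genes and 665 lower. A floor of 20 FPKM left 276 higher and 540 lower, from 3548 genes measured. The authors' deposited call, within the 9424 genes measured, left 2 higher and 76 lower. The cartilage list, with 2 more genes higher than lower, gave -2 for the difference at a pseudocount of 5 FPKM and at a floor of 20 FPKM. Scaling to a common sum over all entries turned the semaphorin list and the lymphatic list to 1 more gene higher than lower, each with 1 more lower in the values reported, and raised the higher share of called genes to 47.5%, against 35.0%. That scaling counts small RNAs, which took 27.4% of FPKM after tenotomy and 28.6% after sham. Lists with more higher than lower members numbered 32 (25 to 36 over the alternatives), and lists with more lower 16 (12 to 18). Of 420 named genes, 61 moved across 2-fold at a pseudocount of 5 FPKM and 20 at the common sum, and 0 of those past 2-fold changed sign under them. The cause of these moves was not tested. No paired analysis was possible because each group is 1 library. Depth limits low genes, and a listed 0 gives no bound.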

Other observations

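The microRNA entry Mir494 was listed at 9163 FPKM after tenotomy and at 0 after sham in neonates, and at 0 in both adult libraries. The hairpin is 85 bases long on chromosome 12 (GRCm38 chr12:109715318-109715402), within the imprinted cluster between Rtl1 and Mirg whose longer transcripts were lower after tenotomy. The mean fragment length worked out for both libraries was 190 bases, longer than the hairpin.

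Prokr1, a receptor for prokineticins, stood at 6.49 FPKM after tenotomy and 0.291 FPKM after sham in neonates and at 0.107 FPKM after tenotomy and 0.864 FPKM after sham in adults. Moxd1, a monooxygenase relative of dopamine beta-hydroxylase, stood at 24.6 FPKM after tenotomy and 4.27 FPKM after sham in neonates, and Ptk7, a receptor-like pseudokinase of planar cell polarity, at 42.6 FPKM after tenotomy and 13.6 FPKM after sham. The interferon-inducible genes Ly6e (111 FPKM after tenotomy, 35.8 after sham) and Bst2 (32.4 FPKM after tenotomy, 14.2 after sham) were also higher in the neonatal tenotomy library. Ccr2, a receptor of recruited monocytes, stood at 11.7 FPKM after tenotomy and 4.19 FPKM after sham, while the resident macrophage genes Mrc1 (47.04 FPKM after tenotomy, 38.7 after sham) and Cd163 (6.58 FPKM after tenotomy, 7.37 after sham) were within 2-fold. These genes were chosen after their values were seen.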
